A study of Mus musculus with 18 samples.

Results

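Gene expression was compared in a line of mouse embryonic stem cells that was treated to switch on a Raf kinase and then given a Mek inhibitor, against the same line left untreated. The members are the arrays titled Rescue_a, Rescue_b and Rescue_c with the ending 8h2h, 3 in number, and the 3 arrays titled Rescue_a, Rescue_b and Rescue_c with the ending 0h, so 6 arrays of 18 in the series. Letters a, b and c each stand for 1 slide, so the 3 differences can be read slide by slide. All cells of the series, the untreated ones included, were of strain 129SV, carried an Esrrb knockout and expressed Raf-ErT2, a fusion kinase of the Raf family activated by 4-hydroxytamoxifen (4OHT). The Rescue-labelled cells had received an Esrrb transgene, and the KO-labelled cells, which serve as the comparison line, an empty vector. The cells were kept in serum with LIF and the GSK3 inhibitor Chir99021. For the last 24 h before treatment, 250 nM of the FGF receptor inhibitor PD173074 stood in place of Chir99021, also at 0h. By the treatment text, the 8h2h cells had 8 h of 250 nM 4OHT followed by 2 h of a Mek inhibitor, and 0h cells were untreated. They therefore differed from the 0h cells by 4OHT, by the inhibitor and by the hours in culture, and these cannot be told apart here. The labels do not say whether the line is 1 clone or whether the 3 arrays of a group came from separate cultures, so p-values measure the spread between these samples, which may be technical.

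Raf, Mek and ERK form a kinase cascade that carries signals from growth factor receptors to the nucleus. Active ERK induces immediate-early transcription factors of the EGR, FOS and MAF families, and also induces its own inhibitors, the DUSP phosphatases and the Sprouty and Spred proteins. Many of these transcripts are short-lived and depend on continued ERK activity, which makes them readouts of the pathway's state. In mouse embryonic stem cells, ERK signalling favours the exit from naive pluripotency, the state held by factors such as Nanog, Esrrb, Klf4 and Tfcp2l1. Esrrb is an orphan nuclear receptor of that network. The comparison asks which differences from 0h were present once Raf activation had been followed by the Mek inhibitor, named PD03 in the series' design text.

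The titles and the source names of the treated arrays disagree. In both lines the source name mentions the Mek inhibitor for arrays titled 8h and leaves it out for those titled 8h2h. Groups here follow the titles, and every statement on 8h2h holds for arrays so titled. Dusp6, Egr1, Myc and Spry4, which ERK induces, were all higher on the Rescue-labelled arrays titled 8h than on those titled 8h2h, as given below. Esrrb RNA, the targeted gene, was read by 1 probe at 4.13, 4.21 and 4.87 on the Rescue-labelled 0h arrays and averaged 5.03 ± 0.27 (SD, n = 3) on the KO-labelled 0h arrays. The probe thus reads Esrrb RNA in cells labelled knockout. Whether it lies in the deleted part is not known here, so it does not check the labels, and the lines are called Rescue-labelled and KO-labelled throughout.

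Levels are log2 of the array signal minus the array's own 75th percentile over all probes, so 0 marks that percentile and a step of 1 is 2-fold. Values are given in the order of slides a, b and c. Arrays of 1 group correlated at r = 0.983 to 0.993 across genes at 0h and at 0.993 to 0.996 at 8h2h. Array c of the 0h group was the dimmest of the 6, with 53.6% of probes well above background against 58.8% to 63.8% on the others. Of 12 defining ES cell markers tested, none was below background on all 3 arrays of either group. Their summed signal, in units of the 75th percentile, was 736 to 916 at 0h and 578 to 676 at 8h2h. Of them 6 fell (2 without scaling the arrays) and 3 rose, from Alpl (log2 change -2.34) to Fut4 (2.34). With 1 array left out, 4 to 6 fell and 0 to 2 rose. The 12 tested fibroblast markers summed to 3.87 to 4.51 at 0h and 12.8 to 14.3 at 8h2h. Of these markers 4 rose and 0 fell, S100a4 (log2 change 4.00), Thy1 (1.46), Twist1 and Col5a1, with 2 to 3 rises when 1 array was left out (fewest without replicate b at 0h or replicate b or c at 8h2h). The calls of Twist1 and Col5a1 were lost in 5 and 4 of those 6 fits, while Col1a1 (-0.48) did not pass, and Lum, Postn and Twist2 were too dim to be tested. The part of other cell types in the results was not tested. Fewer cells expressing a gene and less RNA per cell cannot be told apart in such bulk samples.

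After 8h2h, 3409 of 16022 genes tested differed from 0h at an adjusted p below 0.05 (21.3%), with 1682 higher (10.5%) and 1727 lower (10.8%). All adjusted p values for genes are from limma's moderated test with Benjamini-Hochberg adjustment over all 16022 genes. At an unadjusted p below 0.05 the count was 5206. Both directions were about equally frequent, yet the large changes lay on the side of gain: 854 called genes were at least 2-fold higher and 445 at least 2-fold lower, and at 8-fold the counts were 131 and 18. At 16-fold, 52 were higher and 3 lower. Of the genes called higher, 149 had no 0h array well above background, while 11 of those called lower had no 8h2h array above it. The folds of such genes are not measured, yet the counts at 8-fold and 16-fold include some of them. Examples are Ptprc (log2 change 6.96) and Aldh1a3 (6.90), which read as low as 2.44 and 3.62 under the alternative processings. Others under those processings read as low as 0.65 (Egr3), 1.06 (Gpnmb), 1.72 (Itgax), 1.84 (Krt76) and 1.85 (Tspan8). A fold given below as at least some value is thus a bound for the main processing and the gene's brightest probe only. Of the 3409, 3407 moved the same way on all 3 slides. These genes were called from the same arrays, so that count is no separate replication, and the share over all genes was not computed. For comparison with the single genes below, both groups' arrays did not overlap for 3061 genes on the higher side (19.1%) and 3657 on the lower (22.8%). The median change of all genes was -0.05, with a median SE of 0.19.

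The balance of rises and falls depends on the scaling. Without scaling the arrays to their 75th percentile, the median change of all genes was 0.36 in place of -0.05, and 1689 genes were called, of which 1533 were higher and 156 lower. Every fall below is thus a fall relative to the bulk of the genes on the array, and the number of falls that passed also without scaling is given beside each group. Leaving out array c of the 8h2h group left 1140 genes called lower. Without the KO-labelled 8h2h array of slide b, which is not among the arrays compared, 4468 genes were called. The fits below that leave out 1 of the 6 arrays keep that KO-labelled array. List counts of 1 to 3 members below moved by at most 2 members when 1 of the 6 arrays was left out, some of them to 0, and larger counts that moved by over 1.5 times are given with their range.

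**Figure D1:**
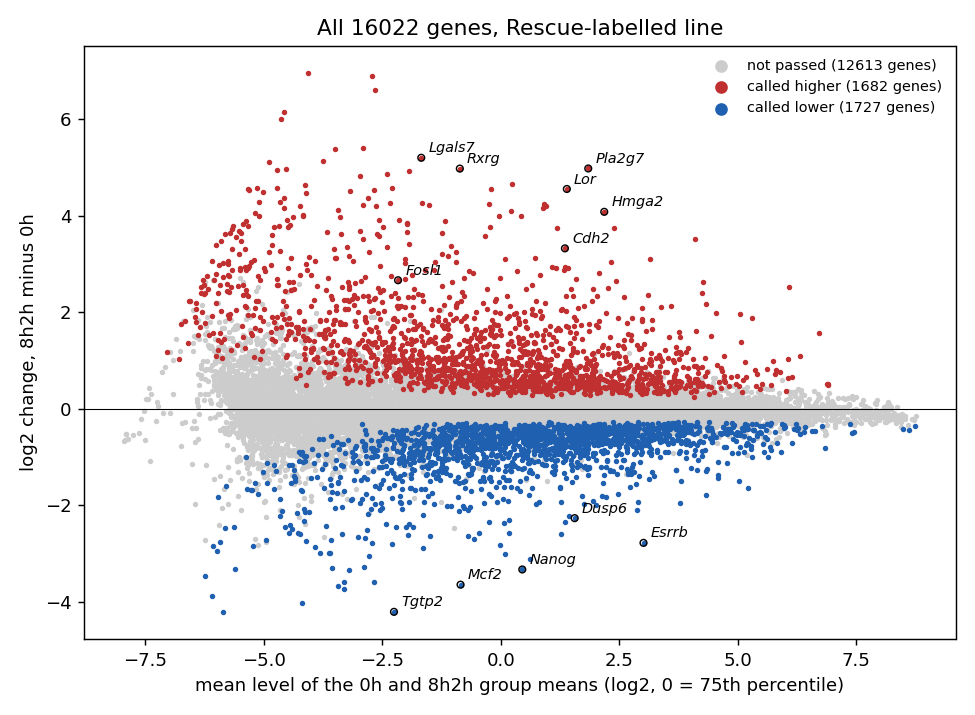
Change between 0h and 8h2h in the Rescue-labelled line for each of 16022 genes (y axis, log2 difference of group means, n = 3 arrays a group) against the mean level of both groups (x axis, log2, 0 = the array's 75th percentile). Red points are the 1682 genes called higher, blue points the 1727 called lower and grey points the rest; circled genes are named, and rises reach further from 0 than falls.

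The feedback inhibitors of ERK split into those that ended below 0h and those that stayed above it. Of 19 tested, 9 rose and 4 fell, with a median change of 0.42 against -0.05 for all genes. Dusp6, the cytoplasmic phosphatase of ERK, stood at 2.18, 2.46 and 3.44 on the 0h arrays and at 0.15, 0.61 and 0.52 on the 8h2h arrays. The groups did not overlap, and the lowest 0h array was well above the highest 8h2h array. The change was -2.27 (SE 0.23, adjusted p = 8.8e-06), a 4.81-fold fall, and without scaling it was -1.85 (adjusted p = 6.4e-05). On the arrays titled 8h Dusp6 averaged 4.67, above both. Spry4, a Sprouty protein that blocks receptor signalling, ran from -3.52, -3.20 and -3.39 at 0h to -4.69, -4.22 and -4.60 at 8h2h, with 0.48 as its mean on arrays titled 8h. All 3 of its 8h2h arrays lay under all 3 of its 0h arrays. Its change of -1.13 had an adjusted p of 0.0447, and the call was lost in 6 of the 6 fits with 1 array left out (up to 0.126, without replicate a at 8h2h) and without scaling. Il17rd, a membrane inhibitor of FGF signalling, fell by 1.8-fold (log2 change -0.85), and Spry2 changed by -0.51 with an adjusted p of up to 0.117 when replicate c at 0h was left out.

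Members that stayed above 0h include other phosphatases. Dusp4, a nuclear ERK phosphatase, went from -0.50, -0.39 and -0.30 to 1.44, 1.45 and 1.38, with tight arrays on both sides and no overlap. This is a 3.52-fold rise (log2 change 1.82, SE 0.14, adjusted p = 6.8e-07), and on arrays titled 8h its mean was 2.98. Dusp2, also nuclear, rose by 1.64, Dusp14 by 1.26 and the adaptor Sh2b3 by 1.53. The Ras GTPase-activating protein Rasa2 rose by 1.05. Dusp1 (-0.44) and Spry1 (-0.42) did not pass. With any 1 of the 6 arrays left out, 5 to 7 members were called higher, fewest without replicate b or c at 8h2h, and 2 to 3 lower, fewest without replicate b or c at 0h or replicate a or c at 8h2h. Without scaling, 8 were higher and 1, Dusp6, lower.

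The immediate-early transcription factors showed the same split: 8 of 27 rose and 4 fell (median 0.27). Fosl1, a FOS-family partner in AP-1, went from -3.46, -3.26 and -3.77 to -1.02, -0.82 and -0.65. Every 8h2h array was above every 0h array, by more than the spread within either group. The rise was 6.34-fold (log2 change 2.66, SE 0.47, adjusted p = 0.00101), with 1.73 on arrays titled 8h. Egr3 was well above background on no 0h array and on all 3 at 8h2h (-3.13, -3.03 and -3.02), which makes it at least 5.82-fold higher (adjusted p = 3.7e-09). Nab2, a co-repressor that EGR proteins induce, rose by 1.45 and Maff, a small MAF protein, by 1.28. Egr1 was close to its start, at -0.50, 0.16 and 0.24 on the 0h arrays and 0.47, 0.67 and 0.57 on the 8h2h arrays against a mean of 4.59 on arrays titled 8h. The groups did not overlap, and the change was 0.60 (SE 0.15, adjusted p = 0.0124), but without replicate b at 8h2h the adjusted p was 0.0529.

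Myc, the growth-promoting factor, ended below its level at 0h: it read 0.47, 0.31 and 0.63 on the 0h arrays and -0.94, -0.98 and -0.97 on the 8h2h arrays. The 8h2h values were almost equal and all lay under the 0h values. It fell 2.7-fold (log2 change -1.43, SE 0.14, adjusted p = 6.1e-06), after a mean of 2.69 on arrays titled 8h. Zfp36l1, which binds AU-rich elements and speeds mRNA decay, fell by 2.45-fold (adjusted p = 3.6e-05), and both falls passed without scaling (-1.02 and -0.88). Fos changed by -1.11 (adjusted p = 0.0183), a call lost in 2 of the 6 fits with 1 array left out (adjusted p up to 0.076, without replicate c at 0h). Srf, the factor that binds the CArG box, changed by -0.62 (adjusted p = 0.0249), and its call was lost in 3 of the 6 fits with 1 array left out, at an adjusted p of up to 0.0815 without replicate c at 0h. Junb (0.27), Zfp36 (0.02) and Ier2 (-0.40) did not pass, although Ier2 did with the slide as a block (adjusted p = 0.0389). With 1 array left out, 4 to 8 members were called higher and 2 to 4 lower, fewest without replicate b at 8h2h and replicate c at 0h, and 2 were lower without scaling.

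Among 13 ETS factors tested, the nuclear end points of the cascade, Etv4 and Etv5 went apart. Etv4 went from 1.47, 2.42 and 2.94 to 3.89, 4.30 and 4.15 (log2 change 1.84, adjusted p = 4.3e-04), and no 0h array reached the 8h2h arrays. Its mean on arrays titled 8h was 4.24. Etv5, its paralog, changed by -0.55 (adjusted p = 0.00643). Without scaling Etv5 changed by -0.14 and did not pass. The group as a whole had 2 members higher and 2 lower, with 0 lower without scaling.

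The cascade itself had a median change of 0.06, and its share of calls was near that of all genes. Of 22 members tested, 2 rose and 2 fell (1 without scaling), which is 18.2% against 21.3%. Map2k1 (0.38), which codes Mek1, did not pass, although it did with the slide as a block (adjusted p = 0.0427). Mras, a Ras-family GTPase, was the exception in size, with 0.71, 0.84 and 0.95 at 0h and -1.63, -1.76 and -1.80 at 8h2h. It fell 5.92-fold (adjusted p = 3.0e-06), with no overlap between the groups. Among 17 growth factor receptors 3 rose and 2 fell (1 without scaling). Fgfr4 went from -2.11, -1.78 and -2.45 to 1.37, 1.57 and 1.46. It rose 12-fold (SE of the log2 change 0.23, adjusted p = 8.3e-08), far beyond the spread of either group. Epha2, an ephrin receptor, went the other way, from 2.90, 3.10 and 3.42 to 0.93, 1.51 and 1.49, after a mean of 4.32 on arrays titled 8h. Its fall was 3.56-fold (adjusted p = 1.9e-05), and the groups did not overlap. Met (0.95) was also called higher, but the call was lost with quantile normalization and with only the 6 arrays compared in the fit. Egfr (-0.24) and Fgfr1 (-0.60) did not pass.

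**Figure D2:**
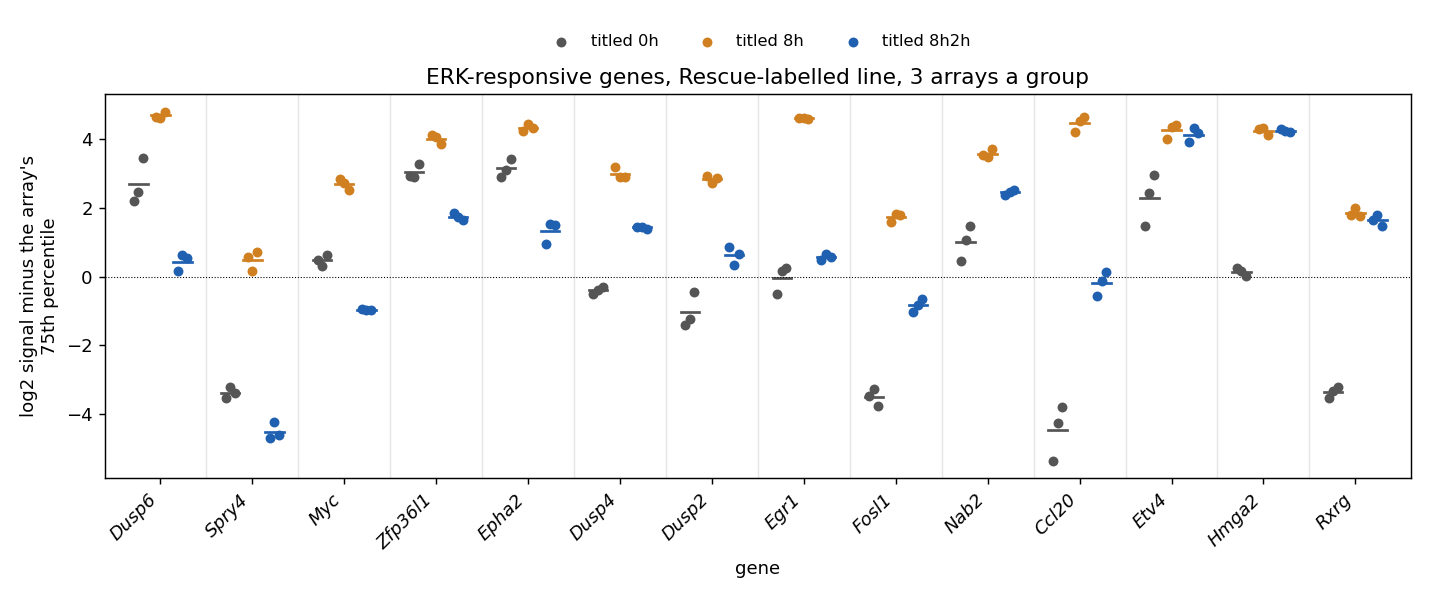
Level of 14 ERK-responsive genes on each Rescue-labelled array (points, log2 signal minus the array's 75th percentile, n = 3 arrays a group; lines are group means) titled 0h, 8h or 8h2h. Dusp6, Spry4, Myc, Zfp36l1 and Epha2 lie lower at 8h2h than at 0h, whereas Dusp4, Fosl1, Ccl20, Hmga2 and Rxrg lie above 0h, and Hmga2 sits at the same height in both treated groups.

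To set sequences beside these responses, promoter windows from RefSeq (build GRCm38.p6, 250 bases before to 50 after a transcript start) were matched by symbol to 12673 of the 16022 genes. The CArG box, bound by SRF, lay in 1.78% of these genes' windows, in 1.63% for genes called higher and in 2.24% for genes called lower. An AP-1 site, TGANTCA on either strand, lay in 6.72% of all, 9.22% of the higher and 6.21% of the lower genes. The ETS core CCGGAA on either strand lay in 26.8%, 22.0% and 21.9%. These are descriptions of letters in a window and say nothing of binding. Stretches of 60 bases upstream of the start are printed for genes that hold a match, with the matched letters in capitals, 3 for the CArG box and 4 for AP-1. They are examples of such matches in genes whose values follow.
Srf CArG box: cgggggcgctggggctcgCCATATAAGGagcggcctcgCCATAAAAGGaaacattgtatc
Dusp5 CArG box: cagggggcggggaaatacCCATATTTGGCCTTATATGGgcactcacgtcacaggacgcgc
Zfp36 CArG box: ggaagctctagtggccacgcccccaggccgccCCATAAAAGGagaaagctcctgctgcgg
Itgax AP-1: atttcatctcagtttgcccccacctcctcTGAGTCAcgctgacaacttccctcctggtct
Il11 AP-1: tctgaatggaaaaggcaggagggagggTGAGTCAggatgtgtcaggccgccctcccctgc
Car9 AP-1: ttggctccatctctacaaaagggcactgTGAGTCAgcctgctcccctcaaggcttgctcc
Cxcl10 AP-1: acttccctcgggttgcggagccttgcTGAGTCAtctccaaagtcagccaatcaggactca
The positions are chr17:46556203-46556262 on the minus strand, chr19:53529045-53529104 on the plus strand and chr7:28379259-28379318 on the minus strand for the CArG matches. For AP-1 they are chr7:128129465-128129524 (plus), chr7:4778207-4778266 (minus), chr4:43506921-43506980 (plus) and chr5:92348930-92348989 (minus). All lie upstream of the annotated start, outside the transcript. Of the CArG genes, Srf was lower at 8h2h (-0.62), Dusp5, an ERK phosphatase, was higher (0.94, adjusted p = 0.0484, and 0.0557 with the slide as a block) and Zfp36 read 0.02 with no call. The call of Dusp5 was lost in 6 of the 6 fits with 1 array left out (adjusted p up to 0.144, without replicate b at 0h). Of the AP-1 genes, Itgax, an integrin of myeloid cells, was at least 17.2-fold higher. Il11, a cytokine of the IL-6 family, rose by 2.14 and Car9, a carbonic anhydrase, by 2.51. Cxcl10, an interferon-induced chemokine, changed by -1.37 (adjusted p = 0.0402), and lost its call in 6 of the 6 fits with 1 array left out (adjusted p up to 0.15, without replicate c at 0h).

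Genes at or near background at 0h were among the largest rises. Ptprc, the CD45 phosphatase of blood cells, was above background on no 0h array and read -0.89, -0.32 and -0.54 at 8h2h, so it was at least 32.4-fold higher (adjusted p = 8.2e-09). Aldh1a3, which makes retinoic acid, was at least 80.2-fold higher, at 0.41, 0.97 and 0.79 on the 8h2h arrays and again on no 0h array above background. Krt76, an epithelial keratin, was at least 15.6-fold higher, and Tspan8, a tetraspanin, at least 21.5-fold. Other genes could be read on both sides. Rxrg, a retinoid X receptor, went from -3.52, -3.33 and -3.21 to 1.64, 1.77 and 1.47. This is a 31.5-fold rise (SE of the log2 change 0.27, adjusted p = 2.2e-08), and its arrays lay close together in each group. Pla2g7, a secreted phospholipase, rose by 4.98 (adjusted p = 3.5e-08) and Lgals7, a galectin of epithelia, by 5.20 (adjusted p = 1.6e-08). On arrays titled 8h these 3 genes averaged 1.83, 4.53 and 1.07, against 1.63, 4.34 and 0.93 at 8h2h. The comparisons 8h against 0h and 8h2h against 8h share arrays with this one, so only their values are set side by side.

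The invasion and AP-1 target genes had 9 of 19 members higher and 1 lower (median 1.07), the highest median of the 31 lists plotted. With normexp background correction the median was 0.57, below the 0.69 of the list of trophoblast genes and simple keratins. Hmga2, a chromatin architectural protein, went from 0.26, 0.16 and 0.01 to 4.27, 4.21 and 4.20. The 3 arrays of each group lay close together while the groups were 16.9-fold apart (adjusted p = 7.3e-09), and Hmga2 averaged 4.22 on arrays titled 8h. Mmp9, a matrix metalloproteinase, rose by 3.51 (adjusted p = 3.6e-05), and Timp1, which inhibits such enzymes, by 2.14 (adjusted p = 5.8e-07). Plaur, the urokinase receptor, rose by 1.18, and Lamb3, a chain of an epithelial laminin, fell by 2.54-fold. The same list without scaling had 11 members higher and 0 lower.

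Of 26 secreted ligands and cytokines, 2 rose and 4 fell (1 without scaling). Ccl20, a chemokine, went from -5.34, -4.25 and -3.79 to -0.57, -0.13 and 0.12. The spread was wide at 0h, yet the groups did not overlap, and the rise was 19.3-fold (SE of the log2 change 0.34, adjusted p = 7.1e-07). On arrays titled 8h Ccl20 averaged 4.44, so its level lay between 0h and 8h. Fgf4, the FGF of the embryo's epiblast, changed by -0.95 (adjusted p = 0.00433) and Fgf17 by -2.45 (adjusted p = 2.2e-05); of these falls, that of Fgf17 passed without scaling. Ereg, an EGF-family ligand, read -7.84, -7.81 and -7.15 at 0h and -6.45, -5.39 and -5.53 at 8h2h and did not pass (adjusted p = 0.0759), although it did with the slide as a block (adjusted p = 0.0497) and without scaling (adjusted p = 0.0404). Lif (-0.57) and Hbegf (0.23) did not pass.

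The genes of naive pluripotency moved down as a group. Of 25 tested, 15 fell and 1 rose, with a median of -0.94, which is -0.89 relative to the median of all genes. Leaving out the scaling cannot alter this relative value, since scaling subtracts 1 constant from each array. The relative median was -0.90 with quantile normalization and -0.78 with normexp background correction. Without scaling 7 fell and 1 rose, and with any 1 of the 6 arrays left out the falls numbered 13 to 14. Nanog, a homeodomain factor at the centre of the network, read 2.52, 2.22 and 1.62 at 0h and -0.48, -1.77 and -1.37 at 8h2h. All 8h2h arrays were below all 0h arrays, and the fall was 10-fold (log2 change -3.33, SE 0.34, adjusted p = 8.3e-06). Its mean on arrays titled 8h was -2.61, lower still. Esrrb itself, read by a probe whose relation to the transgene is not known here, went from 4.13, 4.21 and 4.87 to 1.78, 1.53 and 1.57. That is a 6.86-fold fall (log2 change -2.78, SE 0.26, adjusted p = 4.0e-06), again with no overlap.

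Tfcp2l1, a naive transcription factor, went from 0.91, 1.17 and 1.25 to -1.04, -0.65 and -0.68 (adjusted p = 0.00124), and Zfp42, known as Rex1, from 5.20, 5.05 and 5.41 to 3.61, 3.32 and 3.37 (adjusted p = 7.4e-06). Both sets of arrays were fully separated. Jam2, an adhesion molecule, fell 7.04-fold, Tcl1, a cofactor of AKT, 4.31-fold and Fbxo15 2.83-fold, all also without scaling. Gbx2 (-1.55) and Nr5a2 (-1.08) had means of 1.03 and 2.76 on arrays titled 8h against -0.11 and 2.79 at 0h, and fell at 8h2h. Klf4 changed by -0.94 (adjusted p = 0.016, up to 0.066 without replicate b at 8h2h), with a mean of 1.24 on arrays titled 8h. Klf2 read 4.58, 4.48 and 4.69 at 0h and 4.20, 4.15 and 4.01 at 8h2h, a difference of -0.46 that did not pass (adjusted p = 0.114). The exception among the calls was Manba, a lysosomal mannosidase, which rose by 2.08.

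The shared core of pluripotency changed less. Pou5f1, also called Oct4, stood at 5.63, 5.49 and 5.11 and 5.45, 5.72 and 5.65, groups that overlapped, with a change of 0.19 (SE 0.15, adjusted p = 0.414). Sox2, its partner, went from 4.04, 3.85 and 4.04 to 3.10, 3.10 and 3.05 (log2 change -0.90, adjusted p = 2.8e-04), with 4.07 as its mean on arrays titled 8h. Of 14 core genes tested, 8 fell and 2 rose (median -0.43), and without scaling 1 fell. With 1 array left out 6 to 7 fell and 0 to 1 rose, none without any 1 of the 8h2h arrays. Lin28a (-0.91) and Tcf7l1 (-0.87) fell.

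Genes of the formative and primed epiblast, the states that follow naive pluripotency, moved in both directions: 9 of 22 fell and 5 rose (median -0.50; without scaling 4 and 3). With 1 array left out 2 to 4 rose, fewest without replicate a at 8h2h. Otx2, a homeodomain factor of the early epiblast, read 1.67, 0.88 and 0.76 at 0h and 0.47, -0.49 and -0.34 at 8h2h, a fall of 2.33-fold (adjusted p = 0.00749). Foxd3, a forkhead repressor, fell 4.12-fold, Zic2 6.86-fold and Zic5 6.71-fold. Sox3 and Sox4 rose, by 1.03 and 0.92. Pou3f1 (0.32) and Fgf5 (0.64), classical primed markers, did not pass.

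**Figure D3:**
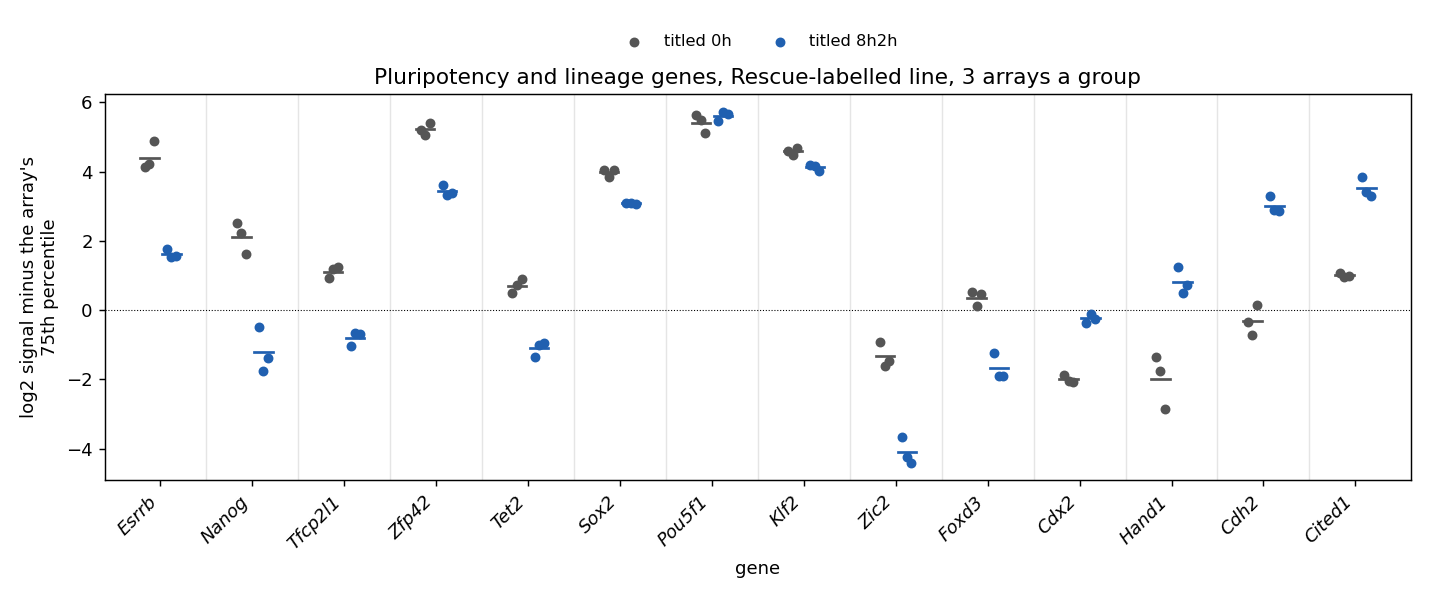
Level of 14 pluripotency and lineage genes on each of the 6 Rescue-labelled arrays titled 0h and 8h2h (points, log2 signal minus the array's 75th percentile; lines are means of 3 arrays). Esrrb, Nanog, Tfcp2l1 and Zfp42 lie lower at 8h2h with no overlap, Pou5f1 overlaps between the groups, and Cdx2, Hand1, Cdh2 and Cited1 lie higher.

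DNA methyltransferases and TET enzymes, which add and oxidise cytosine methylation, had 6 of 11 members lower and 0 higher (median -0.47), and 2 to 4 lower when 1 array was left out, fewest without replicate b at 8h2h. Tet2 went from 0.48, 0.72 and 0.90 to -1.36, -1.01 and -0.94, and Tet1 from 3.88, 3.71 and 4.03 to 2.50, 2.35 and 2.37. Both were separated on all arrays (adjusted p = 1.2e-04 and 6.0e-07), and they are the 2 members that fell without scaling. Dnmt3a (-0.68) and Dnmt3b (-0.70) were called lower, but with 1 array left out the calls were lost at adjusted p values of up to 0.144 (without replicate b at 8h2h) and 0.143 (without replicate c at 0h). Dnmt1 (0.14), which maintains methylation, did not pass.

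The lists of Nodal and Lefty, BMP, and LIF and STAT3 genes had members called lower, few of them without scaling. In the Nodal and Lefty pathway 8 of 18 members fell and 2 rose, with 4 to 8 falls when 1 array was left out, fewest without replicate b at 8h2h. Lefty1, a secreted Nodal antagonist, went from 2.65, 2.47 and 2.56 to 0.35, 0.24 and 0.41, after a mean of -3.30 on arrays titled 8h. The arrays of each group lay close together with no overlap, while the KO-labelled 8h2h arrays, whose spread enters the fit, had an SD of 1.06. The call (log2 change -2.23, adjusted p = 0.0401) was lost in each of the 6 fits with 1 array left out (adjusted p up to 0.101, without replicate b at 8h2h). Lefty2 fell by 4.57-fold (adjusted p = 3.4e-05), and its fall, alone in the list, passed without scaling. Furin, a protease that cuts Nodal's precursor, rose by 1.54.

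Among BMP targets 5 of 16 fell and 0 rose, with 2 to 5 falls when 1 array was left out, fewest without replicate b or c at 8h2h, and 1 without scaling. Id3, an inhibitor of bHLH factors, went from 3.04 ± 0.07 to 1.24 ± 0.16 (SD, n = 3), with no overlap between the groups (log2 change -1.80, adjusted p = 6.4e-04; without scaling -1.39). Id1 (0.24) and Id2 (0.43) did not pass. Of 17 LIF and STAT3 targets 4 fell, 1 rose and 0 fell without scaling. Pim1, a kinase, read 3.15 at 0h, 3.94 on arrays titled 8h and 1.95 at 8h2h (log2 change -1.20, adjusted p = 2.3e-04).

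Several lineage genes were higher. In the trophoblast list 7 of 19 rose and 1 fell (0 without scaling; median change 0.61). Hand1, a bHLH factor of trophoblast and mesoderm, went from -1.34, -1.77 and -2.86 to 1.24, 0.49 and 0.72, and Cdx2, which specifies trophectoderm, from -1.87, -2.03 and -2.08 to -0.36, -0.11 and -0.25. Neither gene overlapped between groups (adjusted p = 0.00121 and 0.00198). Tead4, a partner of YAP, rose by 2.23 and the surface antigen Ly6a by 3.99, while Plac1 (1.39) did not pass. The summed signal of the 19 tested trophoblast genes was 349 to 372 at 0h and 395 to 439 at 8h2h.

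In primitive endoderm, 2 of 28 genes rose and 2 fell (0 without scaling), below the shares over all genes, with sums of 282 to 325 and 281 to 314. Gata6 (0.28), Gata4 (-0.59) and Sox17 (-0.43), its transcription factors, did not pass. The genes that rose were Cited1, a transcriptional co-regulator, from 1.09, 0.96 and 0.98 to 3.86, 3.40 and 3.31 (adjusted p = 1.7e-06), and Cyp26a1, which degrades retinoic acid, from -2.81, -3.06 and -2.92 to -0.59, -0.42 and -0.67 (adjusted p = 8.4e-05). Cyp26a1 averaged 2.85 on arrays titled 8h, Cited1 3.58. Of the Wnt and primitive streak genes 5 of 21 rose and 1 fell (0 without scaling), with Eomes at 1.07 among them and Axin2, a general Wnt target, at 0.13 without a call.

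Of 17 genes of retinoic acid metabolism and response, 4 rose and 3 fell. Aldh1a3, Rxrg and Cyp26a1, given above, are among the rises. Dhrs3, a retinal reductase, changed by -1.44 and Rara, a retinoic acid receptor, by -0.77, and none of the falls passed without scaling. Crabp1, a carrier of retinoic acid, read 0.14 and did not pass.

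Some adhesion genes of epithelial and of mesenchymal cells rose, while others of both kinds did not pass or fell. Of 25 adhesion and EMT genes 12 rose and 2 fell (median 0.47), and 11 rose and 0 fell without scaling. Cdh2, N-cadherin, went from -0.35, -0.72 and 0.16 to 3.29, 2.90 and 2.87, a 10-fold rise with no overlap (adjusted p = 8.2e-08). Cdh1, E-cadherin, changed by -0.01 (SE 0.11) and did not pass. The tight-junction protein Cldn3 (1.93), the desmosomal protein Dsp (1.61) and Epcam (0.89) rose. Of the same family as Cldn3, Cldn4 (0.13) and Cldn7 (0.40) did not pass. Jup (-0.50) and the cadherin gene Cdh3 (-0.51) were called lower, though not without scaling. Snai1 (0.13) and Vim (0.71) did not pass, although Vim did with the slide as a block (adjusted p = 0.0479). Fibronectin, Fn1, fell 2.34-fold. Among integrins, laminins and type IV collagens 8 of 23 rose and 5 fell, with 5 to 9 rises when 1 array was left out, fewest without replicate a or b at 0h or replicate c at 8h2h, and 3 to 4 falls, fewest without replicate c at 0h or any 1 of the 8h2h arrays. Itga7 (1.89), Itga3 (1.25) and Lama3 (1.81) rose. Lama5 fell 2.39-fold, also without scaling (-0.85), where 1 of this list fell. Of 27 actin-binding genes that SRF and YAP regulate 2 rose and 4 fell (0 without scaling), with Fhl2 at 2.07 and Cnn2 at -1.08 among the calls and Actb (0.04) without one.

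Cell cycle and growth genes shifted by small amounts. Of 25 DNA replication and cell cycle genes 11 fell and 0 rose (median -0.36), with Orc1 (-0.95) and E2f1 (-0.82) at the lower end. Without scaling 0 fell, and with 1 array left out 6 to 10 fell, fewest without replicate b at 8h2h. Ccnd1, cyclin D1, changed by -0.86 (adjusted p = 0.00514; without scaling -0.45, not passed), and Cdkn2b, an inhibitor of CDK4 and CDK6, rose by 1.36. Cdkn1a (0.45) did not pass. Of 25 p53 targets 1 rose and 3 fell (0 without scaling). The one that rose was Phlda1, which ERK also induces, at 2.06, 6.33 and 3.92 on arrays titled 0h, 8h and 8h2h (adjusted p = 0.00155). In the BCL2 family 4 of 14 rose and 2 fell (0 without scaling), with 1 to 3 rises when 1 array was left out, fewest without replicate a at 8h2h. Bcl2l11, which codes the pro-apoptotic protein Bim, changed by 0.54 (adjusted p = 0.0118, and 0.0534 without replicate a at 8h2h) after a mean of 3.96 on arrays titled 8h.

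In metabolism, 8 of 22 sterol synthesis genes rose and 1 fell (0 without scaling), with Msmo1, a sterol methyl oxidase, highest among the calls at 1.23. When 1 array was left out the rises numbered 4 to 7, fewest without replicate c at 8h2h. Of 21 ATF4 and amino acid stress genes 6 rose and 1 fell (0 without scaling), with 3 to 6 rises when 1 array was left out, fewest without replicate b at 8h2h. Slc7a11, the cystine transporter, was above background on no 0h array and was at least 2.57-fold higher in the main processing. Its call was lost with normexp background correction (adjusted p = 0.418), and its log2 change was as low as 0.22 under the alternatives. Of 21 glycolysis and hypoxia genes 3 rose and 2 fell (0 without scaling). The nuclear-coded respiratory chain (0 of 21 higher, 1 lower and 0 lower without scaling) and ribosome biogenesis (2 of 24 higher, 0 lower) had shares called of 4.76% and 8.33%, below the 21.3% over all genes. Of 22 lysosome and autophagy genes 5 rose and 3 fell (0 without scaling). Gpnmb, a lysosomal glycoprotein, was at least 10.5-fold higher in the main processing, with a log2 change as low as 1.06 under the alternatives. Of 13 reference genes 2, Hprt (0.88) and B2m (0.76), rose.

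**Figure D4:**
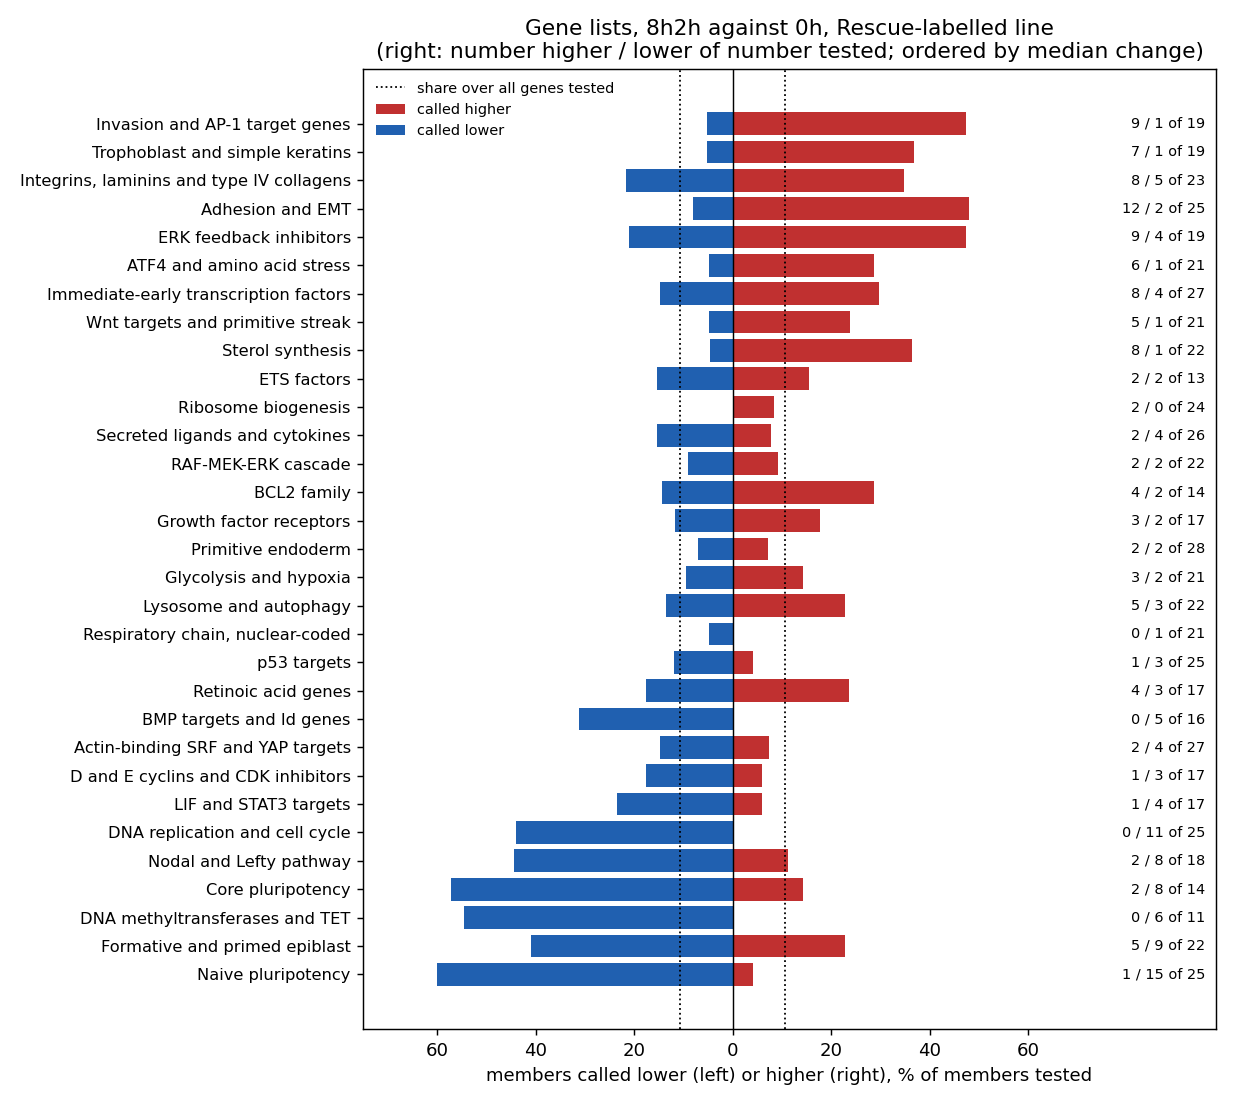
Share of the tested members of each of 31 gene lists called higher (right, red) or lower (left, blue) at 8h2h against 0h, in percent, ordered by the median log2 change; dotted lines mark the shares over all 16022 genes (10.5% and 10.8%). The invasion list is at the top with 9 of 19 higher, and the naive pluripotency list at the bottom with 15 of 25 lower; without scaling, fewer members of the lists at the bottom are lower (7 for naive pluripotency, 0 for DNA replication).

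The largest falls included genes outside these lists. Tgtp2, an interferon-induced GTPase, went from 0.49, -0.41 and -0.52 to -4.16, -4.67 and -4.23, an 18.5-fold fall with wide separation (SE of the log2 change 0.63, adjusted p = 2.3e-04). Mcf2, a guanine nucleotide exchange factor, fell 12.5-fold (adjusted p = 1.1e-07) and Myo1f, a myosin, 13.4-fold (adjusted p = 8.0e-05). Gli2, a transcription factor of Hedgehog signalling, went from -0.72, -0.82 and -1.11 to -4.22, -4.97 and -4.24 (adjusted p = 3.5e-07), and Aqp3, a water and glycerol channel, from 2.12, 2.16 and 2.21 to -1.08, -0.83 and -0.91 (adjusted p = 8.2e-09). Neither gene's groups overlapped. Ldb2, a LIM-domain-binding cofactor, was above background on no 8h2h array and was at least 4.72-fold lower (adjusted p = 0.0032).

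In the KO-labelled line the same comparison called 3595 of 16022 genes (22.4%). Testing whether the change differed by line gave 324 genes (2.02%), of which 133 (0.83%) changed further upward in the Rescue-labelled line and 191 (1.19%) further downward. That count was 45 without scaling and 507 without the KO-labelled 8h2h array of slide b, on which 88.6% of probes were above background. It was 126 to 279 when 1 of the 6 Rescue-labelled arrays was left out, lowest without replicate b at 8h2h. Ano1, a chloride channel, went from a mean of -4.95 to -0.41 in the Rescue-labelled line and changed by -0.30 in the other, a difference of 4.84 (SE 0.48, adjusted p = 2.3e-04). Egr1 changed by 0.60 in the Rescue-labelled and by -2.27 in the KO-labelled line (difference 2.87, SE 0.22, adjusted p = 4.7e-05). At 0h, Egr1 stood at -0.03 in the Rescue-labelled and 1.54 in the KO-labelled cells, so the starting levels differed too. Timp1 rose by 2.14 against -0.19 (adjusted p of the difference 2.3e-04) and Cited1 by 2.51 against 0.70 (adjusted p 0.00845).

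Other genes rose further in the KO-labelled line. Cdx2 was above background on no KO-labelled 0h array and was at least 16-fold higher at 8h2h there. In the Rescue-labelled line it rose 3.37-fold (adjusted p of the difference 0.00419). That difference rests on the unmeasured KO-labelled 0h level. At 8h2h Cdx2 averaged -0.24 in the Rescue-labelled and -0.44 in the KO-labelled line. Pou3f1 changed by 2.11 against 0.32 (adjusted p 0.00987) and Dnmt3a by 1.01 against -0.68 (adjusted p 0.0119). Pou3f1 averaged 1.60 at 0h and 1.92 at 8h2h in the Rescue-labelled line, and -0.28 and 1.83 in the KO-labelled line. For Cdx2 and Pou3f1 the lines thus lay further apart at 0h than at 8h2h. Esrrb fell in both lines, with log2 changes of -2.78 in the Rescue-labelled and -1.18 in the KO-labelled cells. The adjusted p of that difference was 0.0428, with 0.301 without scaling and up to 0.115 with 1 Rescue-labelled array left out. For Dusp6 (-2.27 and -2.16; difference -0.10, SE 0.33, adjusted p = 0.928) and Nanog (-3.33 and -2.40; difference -0.92, SE 0.48, adjusted p = 0.431) no difference between the lines was called. An adjusted p above the threshold does not show that they changed alike.

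**Figure D5:**
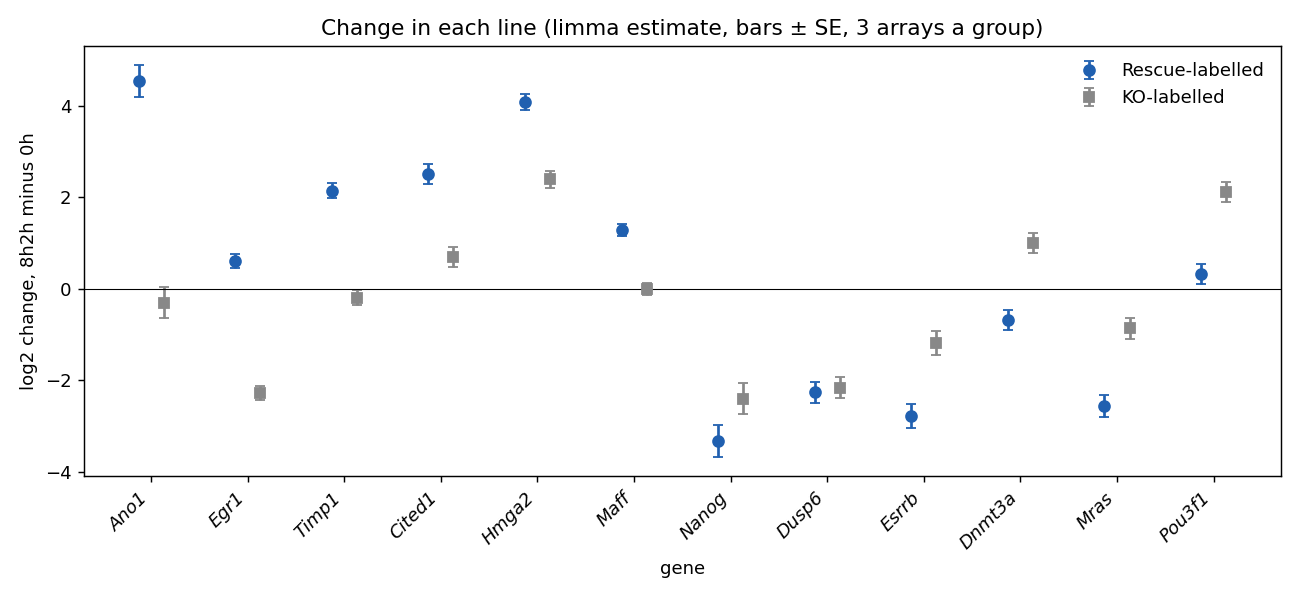
Log2 change from 0h to 8h2h in the Rescue-labelled line (blue circles) and the KO-labelled line (grey squares) for 12 genes, with bars of ± 1 SE from the fit over 18 arrays (3 arrays a group). Egr1 lies above 0 in the Rescue-labelled and at -2.27 in the KO-labelled line, and Pou3f1 lies higher in the KO-labelled line, while the Dusp6 values differ by -0.10.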

How the data were processed

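RNA from 18 samples was read on 1-colour Agilent arrays, 1 array each, of which 6 are compared here. Per the labels' protocols, 100 ng of total RNA was amplified and labelled; they name Cy5, whereas the file headers give 1 green channel. Per the file headers, the authors used Agilent Feature Extraction, which subtracts background; the deposited processed signal is an intensity not scaled between arrays. The deposited value table held the same intensity for all 62976 spots of each array. Deposited spot flags (other values) gave what was well above background, saturated or an outlier.

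Signals were taken to log2 minus each array's 75th percentile. Probes were kept where any of the 6 groups had them well above background on its 3 arrays, probes with outlier spots left out (107 with a symbol), and each of 16022 genes was read from its brightest probe (23318 kept probes matched a RefSeq symbol; no probe positions were used). No spot was saturated. A model of 6 group means was fitted to the 18 arrays with limma 3.58.1 (R 4.3.3; data.table, version 1.17.8), two-sided, called at an adjusted p below 0.05; each gene's spread thus rests on all groups. Where no array of a group was above background, the fold is a lower bound against the gene's signal or, if higher, the array's lowest signal that was well above background. Such a bound uses the gene's brightest probe and the main processing only. The fit was tested on simulated data.

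Groups follow the titles. A group's position was the same on all 3 slides, so the effects of position and group cannot be told apart. Deviations of same-slide 0h and 8h2h arrays from their group means correlated at r = 0.501, 0.338 and 0.205 on slides a, b and c. No such value was computed between arrays of different slides, so these values alone do not show pairing. The main fit takes no account of the slide, and the fit with the slide as a block is an alternative. The others were normexp background correction (offset 50, on the median spot signal), quantile normalization, no scaling, another percentile, no or a stricter filter, averaging a gene's probes, the arrays in the fit, the variance prior, a 2-fold minimum, leaving out arrays, and unnamed probes in the adjustment. The comparison's members and the 34 gene lists were chosen with earlier results of these data known. Named genes are up to 15 top rises and 15 top falls, up to 6 called members of a list and uncalled ones where a list needs them, 26 fixed genes, and the 6 highest and 6 lowest line differences. Some genes that these rules name are not reported here. Families in the closing section were chosen after their values were seen.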

Additional observations from a re-analysis of the deposited data

Results flagged for a closer look

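The change from 0h to 8h2h differed between the Rescue-labelled and KO-labelled lines by limma's test of the difference itself for the genes below, each given as the Rescue-labelled minus the KO-labelled change on the log2 scale. Toward the Rescue-labelled line these were Ano1 (4.84), Egr1 (2.87), Timp1 (2.33), Cited1 (1.81), Hmga2 (1.69) and Maff (1.29). Toward the KO-labelled line they were Pou3f1 (-1.79), Mras (-1.70), Dnmt3a (-1.69) and Esrrb (-1.60). Their adjusted p values ran from 4.7e-05 for Egr1 to 0.0428 for Esrrb. Without the KO-labelled array titled 8h2h of slide b, they ran up to 0.0118, for Pou3f1. Without scaling, Hmga2 (0.301), Maff (0.514), Cited1 (0.352), Dnmt3a (0.45), Mras (0.381) and Esrrb (0.301) did not pass, and with quantile normalization Maff (0.0517) did not. Egr3 was above background on no array of either 0h group and on no KO-labelled 8h2h array, so its difference is not given. Of the 6 genes with the lowest differences, 4 were above background on none of the 6 Rescue-labelled arrays at 0h and 8h2h, so their differences are not measured folds and are not given.

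Probes without a gene symbol were outside the comparisons. Of 10850 such probes tested, 346 were called higher and 410 lower (6.97%).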

How the results depend on the processing

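Of the 129 called changes among the 159 genes named, 58 stayed called in the same direction under each of the 21 alternatives that could be run for them. With the slide as a block 4035 genes were called in place of 3409, and among the genes named the block ended the call of Dusp5 and changed no other call to a miss; 4 uncalled genes passed. No scaling gave 1689 calls in all and 156 lower, and a 2-fold minimum gave 353 in all, 289 higher and 64 lower. Leaving out 1 array gave 2443 to 4468 calls, with 1140 to 2291 lower. The highest of both counts came without the KO-labelled array titled 8h2h of slide b. For the difference between the lines, 324 became 190 with normexp, 45 without scaling, 157 with no filter on dim probes, 17 with the 2-fold minimum, 183 with unnamed probes in the adjustment (an alternative chosen after seeing the data). It was 126 to 507 with 1 array left out, highest without that KO-labelled array. The cause of these moves was not tested, apart from the stricter threshold of the 2-fold minimum and the larger number of tests with unnamed probes.

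Some uncalled genes changed sign. Without scaling Egfr read 0.17, Ier2 0.012 and Cdh1 0.40. With normexp Cdh1 read 0.068, Axin2 -0.11 and Ereg -0.11, and Cdh1 was 0.015 with quantile normalization and 0.011 with the percentile over probes above background on every array. With 1 array left out, Actb ran from -0.075 to 0.13, Zfp36 from -0.036 to 0.086, Dnmt1 from -0.20 to 0.36 and Cdh1 from -0.015 to 0.0080. List medians moved with the median of all genes: without scaling those of the Nodal (0.03), LIF (0.12), BMP (0.24), p53 (0.27) and DNA replication (0.05) lists were above 0, and those of the naive (-0.53) and formative (-0.09) lists below it. Signal over background limits the genes that could be read at 0h, and 3 arrays a group limit the precision.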

Other observations

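Gene families outside the lists were gathered by symbol after their values had been seen, so their counts are descriptions without a test, to be read beside 10.5% of all genes called higher and 10.8% called lower. Of 12 S100 calcium-binding proteins tested, 9 were called higher and 0 lower (median log2 change 1.41), led by S100a4, S100a3 (3.88) and S100a6 (2.53). Of 8 Ly6 surface antigens, 4 were higher and 0 lower, with Ly6c1 at 4.25. Of 15 claudins, the strands of tight junctions, 5 were higher and 0 lower. Of 28 keratins 5 were higher, among them Krt5, a keratin of basal epithelial cells, at 3.85. Single genes with large rises were picked after their values were seen and stand for no group. Lor, which codes loricrin of the cornified skin layer, rose by 4.56 (adjusted p = 5.5e-07) and Sprr1a, a small proline-rich protein, by 4.26. Runx1, a transcription factor of blood formation, rose by 3.91 (adjusted p = 5.5e-08), and Kdr, a VEGF receptor, by 3.91 (adjusted p = 4.7e-06). Vgf, a secreted neuropeptide precursor, rose by 3.74 and Ptprn, a protein of secretory granules, by 3.65.

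On the other side, 4 of 10 oligoadenylate synthetases, interferon-induced sensors of viral RNA, were lower and 0 higher, with Oas2 at -2.34 (adjusted p = 4.9e-07). Of 8 kallikrein 1 genes, near-identical copies whose probes may share signal, 5 were lower and 0 higher. Both tested members of cytochrome P450 family 1, targets of the aryl hydrocarbon receptor, were lower, with log2 changes of -3.05 for Cyp1a1 (adjusted p = 3.3e-04) and -3.34 for Cyp1b1 (adjusted p = 0.0115, and 0.0547 without replicate b at 8h2h). Without scaling the arrays, the numbers lower were 1, 4 and 2 for these 3 families, and no family named in this section changed direction.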
